A study of Mus musculus with 24 samples.

Results

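Fcer2a and 8 other genes of the B cell lineage were followed through all 24 RNA sequencing libraries of a mouse CD4+ T cell activation series. The 9 genes, of 22009 named genes in the deposited table, were chosen by name, and Fcer2a was set apart because its level differed between culture conditions unlike that of the other 8. Fcer2a encodes CD23, the low-affinity receptor for IgE. The other 8 genes encode the signalling chains of the B cell receptor (Cd79a and Cd79b), the surface proteins CD20 (Ms4a1), CD22 (Cd22) and CD21/CD35 (Cr2), the transcription factors Pax5 and Ebf1, and the adaptor Blnk. The values that selected Fcer2a, its differences between Th0, Th1 and Th2 cultures, are therefore given as a description and were not tested. Its change with time and its levels after actinomycin are not named in the reason for that choice. However, the genes were chosen with earlier results of these data known.

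All cells came from the spleen of adult wildtype C57BL/6 mice and were CD4+ cells isolated by magnetic negative selection and pooled over several mice. Libraries comprised 2 of resting cells and 1 for each of 3 culture conditions at 4, 8, 12, 16, 20 and 24 h. Every culture received anti-CD3 and anti-CD28. Nothing further was added to Th0, whereas anti-IL-4 with recombinant IL-12 was added to Th1, and recombinant IL-4 with antibodies to IL-12 and IFN-γ to Th2. In a further 4 libraries, 16 h of stimulation was followed by 0, 1, 2 or 4 h of actinomycin, a blocker of transcription, in a skewing condition that the labels do not give. Both the labels and the study's account of this time course speak of purified CD4+ cells, although its sequencing methods call them naïve. Resting and cultured libraries are titled with different tags, and what the tag stands for cannot be told apart from the culture itself.

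CD23 is a C-type lectin that B cells carry on their surface, where it takes part in the uptake of IgE complexes and in the control of IgE synthesis. IL-4, acting through the transcription factor STAT6, is the best known inducer of Fcer2a in B cells. The CD79 chains couple surface immunoglobulin to intracellular kinases, Blnk links those kinases to downstream signalling, and Ebf1 and Pax5 establish and maintain B cell identity. T cells do not depend on this machinery, and its transcripts commonly serve as markers of B cells.

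The T cell identity of the preparation was visible in every library, and RNA of other splenic cells was also present. Summed RPKM (read counts scaled to transcript length and library depth) of the 7 T cell markers in the table, among them Cd3e and Cd4, lay between 1147 and 1859 in the 20 time-course libraries. The 10 monocyte and macrophage genes summed to 577 and 597 RPKM in resting cells and to between 8.11 and 79.2 RPKM in the 18 cultures. Haemoglobin genes held 6.25% and 6.86% of summed RPKM in resting cells, between 4.99% and 7.36% at 4 h and at most 0.0333% at 24 h. Follicular dendritic cells also carry CD23, and the 6 genes of their list summed to 19.5 and 19.6 RPKM in resting cells and to between 5.59 and 23.4 RPKM in the cultures. Of these, Mfge8 (8.20 and 8.94 RPKM at rest), Clu, Fcgr2b and Coch, which other cells also express, made up nearly all of the sum, while Cxcl13 stood at 0.173 and 0.181 RPKM and Madcam1 at 0 and 0.120 RPKM. The part of these cell types in the results below was not tested. In bulk RNA, fewer B cells and less of a transcript per B cell cannot be told apart.

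Promoter sequences of the 9 genes were examined for binding motifs of factors known to act on them. RefSeq start sites gave 10 windows of 300 bases in GRCm38.p6, from 250 bases before to 50 after a start, for 7 of the 9 genes; Cd79b and Ms4a1 had no window. Searched on both strands were the STAT6 motif (TTC, 4 bases of any kind, GAA), the shorter STAT motif (TTC, 3 bases of any kind, GAA), the EBF1 palindrome (TCCC, 2 bases of any kind, GGGA) and the octamer ATTTGCAT. The 3 windows that held a match are printed with the match in capitals, together with the Fcer2a window at the most upstream start, which held none.
Fcer2a, chr8:3690812-3691111, minus strand: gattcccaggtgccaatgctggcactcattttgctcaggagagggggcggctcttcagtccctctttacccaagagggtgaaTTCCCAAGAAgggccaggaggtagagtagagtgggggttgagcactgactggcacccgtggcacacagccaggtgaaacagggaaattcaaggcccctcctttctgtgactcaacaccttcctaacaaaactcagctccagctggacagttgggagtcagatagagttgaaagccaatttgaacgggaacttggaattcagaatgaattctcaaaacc
Fcer2a, chr8:3694125-3694424, minus strand: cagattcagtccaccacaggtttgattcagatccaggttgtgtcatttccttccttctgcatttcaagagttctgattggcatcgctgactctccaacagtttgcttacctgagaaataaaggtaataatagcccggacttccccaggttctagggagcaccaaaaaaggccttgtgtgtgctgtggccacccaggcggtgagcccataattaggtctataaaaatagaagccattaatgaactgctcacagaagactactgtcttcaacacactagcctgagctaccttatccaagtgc
Cd22, chr7:30878979-30879278, minus strand: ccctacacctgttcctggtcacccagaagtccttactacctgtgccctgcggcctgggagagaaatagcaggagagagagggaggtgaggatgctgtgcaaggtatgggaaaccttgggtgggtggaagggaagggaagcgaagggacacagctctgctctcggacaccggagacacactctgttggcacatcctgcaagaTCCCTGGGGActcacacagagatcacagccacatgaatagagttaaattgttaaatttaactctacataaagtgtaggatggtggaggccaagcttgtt
Blnk, chr19:40994172-40994471, minus strand: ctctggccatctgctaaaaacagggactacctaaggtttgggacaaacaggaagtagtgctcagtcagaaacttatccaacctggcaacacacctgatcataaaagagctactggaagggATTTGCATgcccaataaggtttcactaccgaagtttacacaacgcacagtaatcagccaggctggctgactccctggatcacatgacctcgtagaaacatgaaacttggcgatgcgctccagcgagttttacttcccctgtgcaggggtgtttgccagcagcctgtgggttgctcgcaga
The STAT6 match TTCCCAAGAA of Fcer2a began 168 bases before an internal start of the gene. The Cd22 window held the EBF1 palindrome TCCCTGGGGA, beginning 49 bases before the start, and the Blnk window held the octamer ATTTGCAT, beginning 130 bases before the start. Of all 32851 windows in the table, 6.95% held the STAT6 motif, 8.30% the shorter STAT motif, 0.904% the EBF1 palindrome and 1.74% the octamer. These shares are per window, and Fcer2a had 3 of the 10 windows, so it had more occasions for a match than a gene with a single window. A match gives the letters of a window and does not show that a factor binds there. Whether any motif bears on the differences between culture conditions was not tested. The third Fcer2a window and those of Cd79a, Cr2, Pax5 and Ebf1 held none of the 4.

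Fcer2a (GRCm38 chr8:3681737-3694175, minus strand) was low in resting cells, with 3.03 and 3.34 RPKM, or 3.18 ± 0.22 (SD, n = 2). These values rested on 134 and 176 reads, as recovered at an inferred transcript length. In Th2 cultures Fcer2a measured 6.59, 13.6, 16.4, 15.8, 11.9 and 10.6 RPKM at 4, 8, 12, 16, 20 and 24 h. All 6 Th2 values lay above both resting libraries, and the highest, at 12 h, was 5.15 times the resting mean. In Th0 cultures Fcer2a measured 4.12, 8.75, 7.02, 7.36, 5.47 and 4.94 RPKM at the same times. The 6 Th0 values also lay above both resting libraries, with the highest at 8 h, 2.75 times the resting mean. In Th1 cultures it measured 1.499, 2.21, 2.39, 2.60, 2.60 and 2.98 RPKM, all below both resting libraries as deposited. The Th1 values were lowest at 4 h, at 47.1% of the resting mean, and stood at 93.8% of it at 24 h. Only at 4 h was the 95% counting interval of Th1 clear of those of both resting libraries. That side of rest also depended on the scaling, since under quantile normalization 1 of the 6 Th1 cultures lay below both resting libraries and 5 above, and under median-of-ratios scaling 5 lay below. The Th0 and Th2 cultures stayed above both in each scaling tried, although the counting interval of Th0 at 4 h met that of resting replicate 2.

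**Figure D1:**
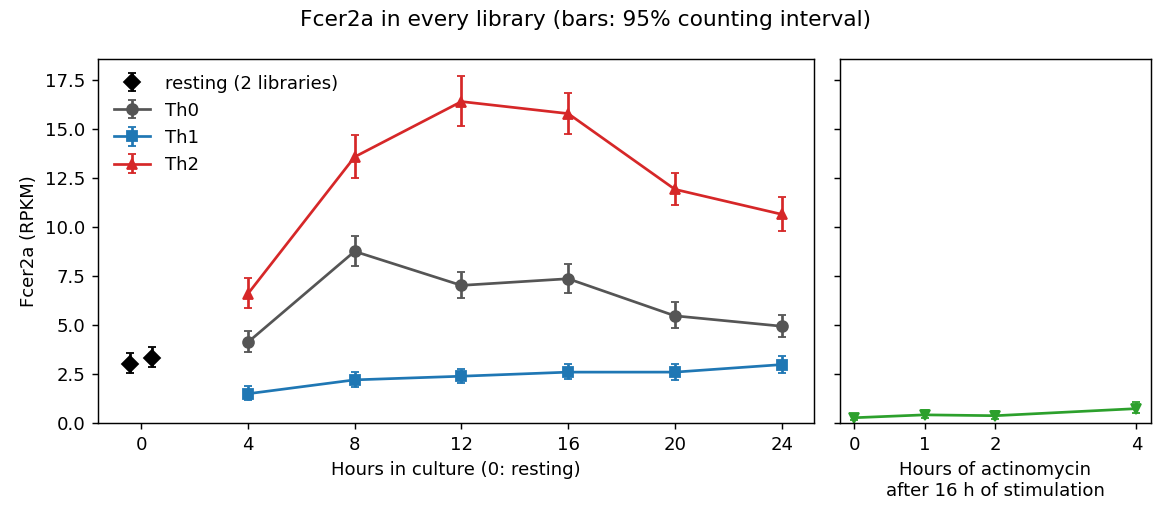
Fcer2a in RPKM against hours in culture for the 2 resting libraries and the Th0, Th1 and Th2 cultures (left), and against hours of actinomycin (right). Points are single libraries and bars are 95% Poisson intervals from the reads recovered for each value. Th2 reaches 16.4 RPKM at 12 h, Th1 stays between 1.499 and 2.98 RPKM, and the actinomycin libraries lie between 0.277 and 0.742 RPKM.

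The order Th2 over Th0 over Th1 held for Fcer2a at all 6 time points. These differences selected the gene, so the counting intervals given here describe read depth and are no test of the order. At 12 h the Th2 level was 6.85 times the Th1 level, with a 95% exact binomial counting interval from 5.79 to 8.14. At 24 h this ratio was 3.57, with an interval from 3.02 to 4.23. The ratio of Th2 to Th0 was smallest at 8 h, at 1.55 (1.37 to 1.75), and largest at 12 h, at 2.33 (2.07 to 2.64). The ratio of Th1 to Th0 ran from 0.252 at 8 h to 0.604 at 24 h, so these conditions were nearest to each other at the last time point. Such intervals cover counting error only, since each condition and time was sequenced once. On the scale of log2(RPKM + 0.5) Fcer2a differed between Th2 and Th1 by 2.14 ± 0.35 (SD over 6 time points), between Th2 and Th0 by 0.92 ± 0.25 and between Th1 and Th0 by -1.21 ± 0.39.

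Each of the other 8 genes had a smaller mean Th2 minus Th1 difference than Fcer2a on the log2 scale. Over these 8 genes the median Th2 minus Th1 difference in log2(RPKM + 0.5) was 0.12, beside 0.02 over all genes tested, and the median Th1 minus Th0 difference was -0.28, beside -0.01. Cd79b was higher in Th2 than in Th1 at 6 of 6 time points, by 1.11 ± 0.60 on the log2 scale (SD over 6 time points). In the 24 h libraries Th0, Th1 and Th2 held 3.56, 1.40 and 7.40 RPKM of Cd79b, a Th2 to Th1 ratio of 5.28, which exceeded that of Fcer2a at the same time. Pax5 was also higher in Th2 than in Th1 at all 6 time points, by 0.65 ± 0.51, with the ratio ranging from 1.09 to 3.78. For Cd79a, the partner chain of Cd79b, the Th2 minus Th1 difference was 0.05 ± 0.26. Ms4a1, Cd22, Cr2, Ebf1 and Blnk differed between Th2 and Th1 by between -0.06 and 0.20 on average, each less than the SD over time points. Cr2 and Ebf1 lay near or under the pseudocount of 0.5, which flattens their differences, and in RPKM the mean of Cr2 was 1.88 times higher in Th2 than in Th1, beside 1.87 times for Pax5. On the log2 scale 7 of the 8 genes were on average higher in Th2 than in Th1, as Fcer2a was, and 8 of 8 were lower in Th1 than in Th0, whereas 2 of 8, Cd79b and Pax5, were higher in Th2 than in Th0.

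**Figure D2:**
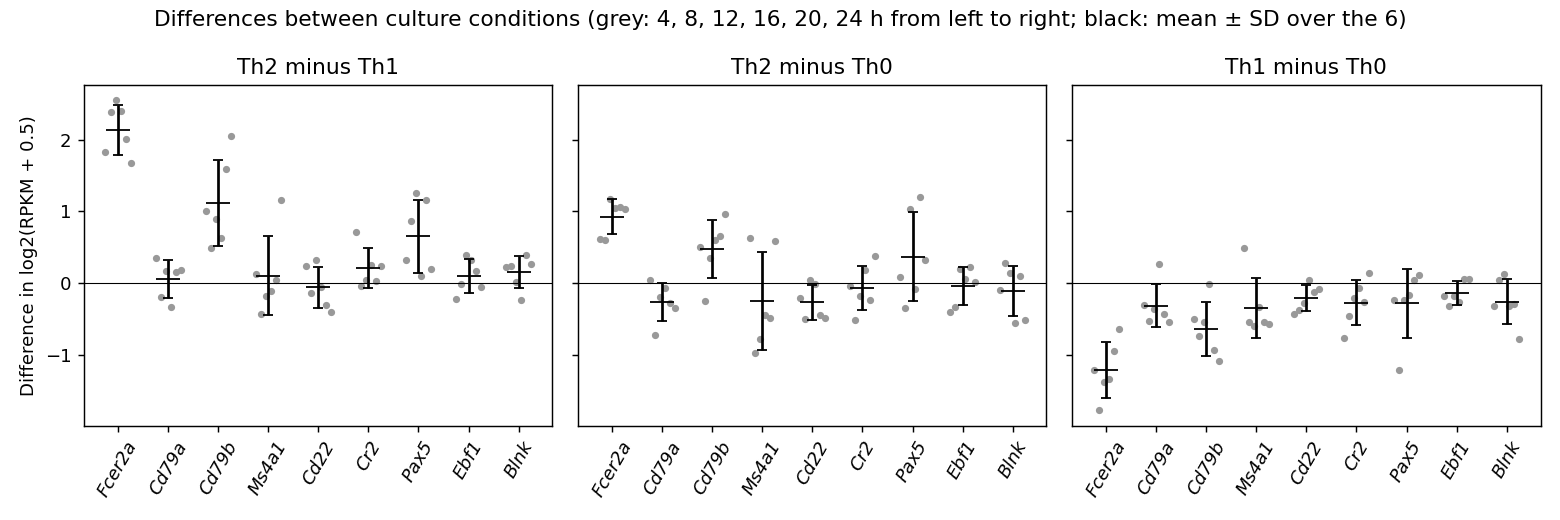
Differences between culture conditions in log2(RPKM + 0.5) for the 9 genes. Grey points are the 6 time points from 4 h (left) to 24 h (right), and black marks are their mean ± SD. Fcer2a stands at 2.14 in Th2 minus Th1 and at -1.21 in Th1 minus Th0, and Cd79b is next at 1.11 and -0.64.

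The B cell receptor chains started high and declined in culture. Cd79a (chr7:24897381-24902197, plus strand) measured 20.1 and 22.5 RPKM in resting cells. Its levels at 4, 8, 12, 16, 20 and 24 h were 14.5, 11.1, 6.03, 3.94, 4.41 and 3.33 RPKM in Th0, 11.6, 7.51, 4.57, 4.83, 3.13 and 2.13 RPKM in Th1, and 14.9, 6.48, 5.21, 3.72, 3.54 and 2.50 RPKM in Th2. Every culture lay below both resting libraries, and at 24 h between 10.0% and 15.6% of the resting mean was left. Cd79b (chr11:106311341-106314762, minus strand) measured 20.7 and 23.7 RPKM in resting cells. The 4 h libraries held 16.9 RPKM of Cd79b in Th0, 11.8 in Th1 and 24.2 in Th2, and the Th2 value was the only one of the 18 cultures above both resting libraries. After 24 h Cd79b was left at 16.0% of the resting mean in Th0, 6.32% in Th1 and 33.3% in Th2.

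CD20, CD22 and CD21/CD35, surface proteins of mature B cells, followed a similar course. Ms4a1 (chr19:11249675-11266241, minus strand) measured 11.4 and 13.96 RPKM in resting cells, and 3.69, 5.40 and 5.96 RPKM at 4 h in Th0, Th1 and Th2. By 24 h the Ms4a1 levels were 2.46, 1.49 and 3.93 RPKM in the same order. In Th0 the level was higher at 8 h (7.89 RPKM, 95% counting interval 7.14 to 8.69) than at 4 h (3.18 to 4.26), before it declined. Cd22 (chr7:30865402-30880342, minus strand), an inhibitory co-receptor, measured 4.97 and 5.21 RPKM in resting cells and ran in culture from 2.09 RPKM at 4 h in Th0 down to 0.370 RPKM at 24 h in Th2. Cr2 (chr1:195136811-195176716, minus strand), a receptor for complement fragments, measured 1.27 and 1.12 RPKM in resting cells and between 0.0646 and 0.509 RPKM in culture. No culture reached either resting library for Ms4a1, Cd22 or Cr2. Cd22 shares exonic bases with Gm29439 on the opposite strand, and Pax5 with 5730488B01Rik and Gm12462, and since the strandedness of the counting is not given, reads of these partners cannot be told apart.

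Transcription factors and the adaptor were less abundant. Pax5 (chr4:44524757-44710487, minus strand) measured 2.37 and 3.28 RPKM in resting cells, 1.83, 1.47 and 1.96 RPKM at 4 h and 0.745, 0.848 and 1.05 RPKM at 24 h in Th0, Th1 and Th2. At 20 h Pax5 measured 0.592 RPKM in Th0, 0.623 in Th1 and 2.01 in Th2. Ebf1 (chr11:44617317-45008091, plus strand) measured 1.34 and 1.16 RPKM in resting cells and between 0.0617 and 0.763 RPKM in culture. Blnk (chr19:40928927-40994535, minus strand) measured 4.63 and 5.34 RPKM in resting cells, 3.21, 2.46 and 2.95 RPKM at 4 h and 1.54, 0.690 and 0.925 RPKM at 24 h. As for Cd79a, all cultures lay below both resting libraries for Pax5, Ebf1 and Blnk, except that under quantile normalization 1 of the 6 Th2 cultures and 4 of the 6 Th0 cultures did so for Pax5.

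**Figure D3:**
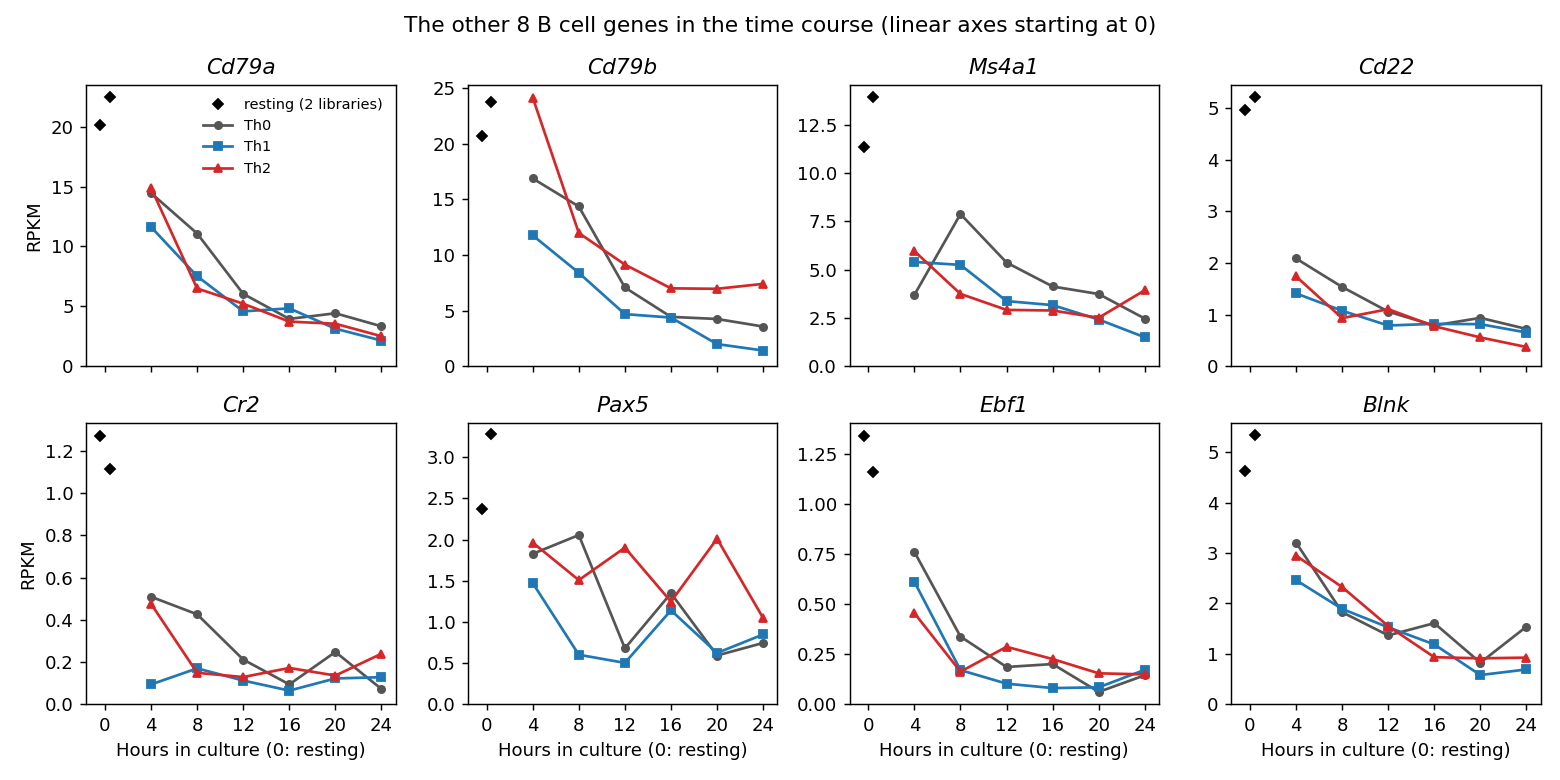
RPKM of the other 8 genes against hours in culture, with a linear axis from 0 for each gene, for the 2 resting libraries and the Th0, Th1 and Th2 cultures. All fall short of both resting libraries at 24 h, and 7 of the 8 do so at every time, the exception being Cd79b in Th2 at 4 h (24.2 RPKM). The share of all genes that lie below both resting libraries is not given.

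Changes with time were tested over the whole table, for genes that averaged 1 RPKM or more, by limma on log2(RPKM + 0.5), with a call at an adjusted p under 0.05 and at least a 2-fold change. Fcer2a and 6 others passed that limit, while Cr2 and Ebf1, at or above 1 RPKM only in resting cells, did not. With no filter on low values, the log2 change at 24 h was -1.40 (adjusted p = 3.1e-05) for Cr2 and -1.42 (adjusted p = 6.8e-07) for Ebf1. By 4 h Cd22 had fallen by 1.33 ± 0.20 on the log2 scale (SE; adjusted p = 1.0e-04) and Ms4a1 had fallen by 1.27 ± 0.33 (adjusted p = 0.0074). These were 2 of 7 members tested, against 7.97% of all genes called lower at 4 h. Cd79a, at -0.63 (adjusted p = 0.031), and Blnk, at -0.71 (adjusted p = 0.018), did not reach a 2-fold change. Cd79b, at -0.38 (adjusted p = 0.60), and Pax5, at -0.55 (adjusted p = 0.31), passed neither limit. The Ms4a1 call was lost without resting replicate 2 (adjusted p = 0.082).

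At 24 h against rest 6 of the 7 members tested were called lower, against 17.4% of all genes. The log2 change of Cd79a was -2.81 ± 0.21 (SE; adjusted p = 1.1e-08), that of Cd79b -2.52 ± 0.50 (adjusted p = 3.3e-04) and that of Cd22 -2.39 ± 0.20 (adjusted p = 4.7e-08). For Ms4a1 it was -2.14 ± 0.33 (adjusted p = 3.5e-05), for Blnk -1.86 ± 0.21 (adjusted p = 1.8e-06) and for Pax5 -1.26 ± 0.39 (adjusted p = 0.0096). The Pax5 call was lost under quantile normalization, where its change was -0.56 (adjusted p = 0.23), and without resting replicate 2, where it was -1.06 (adjusted p = 0.088). In culture alone, from 4 to 24 h with condition in the model, 4 of the 7 members were called lower, against 13% of all genes. These were Cd79a (-2.18 ± 0.16, SE), Cd79b (-2.14 ± 0.23), Blnk (-1.15 ± 0.19) and Cd22 (-1.06 ± 0.17), with adjusted p of at most 5.4e-05. With a pseudocount of 1 the changes of Blnk (-0.93) and Cd22 (-0.80) fell short of 2-fold, as did Blnk under quantile normalization (-0.89) and Cd22 without the Th2 cultures (-0.91). Ms4a1 (-0.87, adjusted p = 0.011) and Pax5 (-0.71, adjusted p = 0.034) did not reach a 2-fold change.

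Fcer2a was not called in any of these tests. Averaged over the 3 conditions, it differed from rest by 0.13 ± 0.85 (SE; adjusted p = 0.93) at 4 h and by 0.70 ± 0.85 (adjusted p = 0.48) at 24 h. The SE of 0.85 holds the spread between Th0, Th1 and Th2. With culture condition as a factor the 24 h difference kept its size and had an SE of 0.19 (adjusted p = 0.0043), still short of 2-fold. From 4 to 24 h in culture Fcer2a was higher by 0.56 ± 0.18 (SE; adjusted p = 0.011), again short of 2-fold, and without the Th1 or the Th2 cultures this adjusted p was 0.063. At 24 h the other 6 members tested lay between -2.81 and -1.26 in the same fit.

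Set against the other 8 genes of the same library, Fcer2a stood above its resting share from 8 h onwards in all 3 conditions. The ratio of Fcer2a to their summed RPKM was 0.0453 and 0.0437 in resting cells. By 4 h Th0 was at 0.0949, Th1 at 0.0430 and Th2 at 0.125. At 16 h the ratio stood at 0.445 in Th0, 0.166 in Th1 and 0.930 in Th2, and at 24 h at 0.393, 0.397 and 0.643. Th0 and Th1 had thus come to nearly the same ratio at 24 h, although Fcer2a itself was 4.94 RPKM in Th0 and 2.98 in Th1. Among the 18 cultures the Pearson correlation of log2(RPKM + 0.5) with Fcer2a ranged from -0.18 (Cd22) to 0.50 (Pax5), with a median of -0.02 over 8 pairs. The 28 pairs among the other genes ranged from 0.26 to 0.93, with a median of 0.65. These cultures share their time points and cell preparation, so the correlations are descriptive. Fcer2a was also set apart for its differences between these cultures, so its correlations with the other genes are not independent of that choice.

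**Figure D4:**
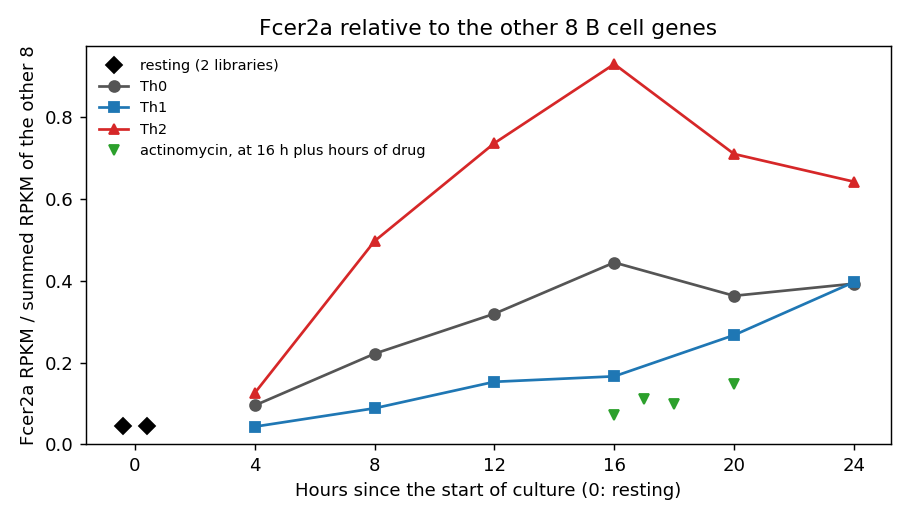
Fcer2a RPKM divided by the summed RPKM of the other 8 genes in each library, against hours since the start of culture. The 2 resting libraries lie at 0.0453 and 0.0437, Th2 peaks at 0.930 at 16 h, and Th0 and Th1 meet at 24 h (0.393 and 0.397).

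The genes whose pattern was nearest to that of Fcer2a over the 20 time-course libraries were Ccl17, Il4i1, Npas2, Slc2a6 and Ccr4, with Pearson correlations between 0.86 and 0.90 among 10896 genes. Ccl17 encodes a chemokine ligand of CCR4, and Ccr4 encodes that receptor, a marker of Th2 cells. Mean Ccl17 in resting, Th0, Th1 and Th2 libraries was 0.239, 1.77, 0.478 and 7.81 RPKM. For Ccr4 these means were 6.65, 16.3, 9.63 and 65.0 RPKM. The differences between conditions that selected Fcer2a also enter these correlations. That its nearest genes share its order of conditions follows from this and lends no separate support. Pax5 was the member nearest to Fcer2a, at rank 3157 (r = 0.27), and Cd79a ranked 7694 (r = -0.25). Nearest to Cd79a were Ctse, Lyl1, Art4, Mkrn1 and Wipi1, all at 0.98 or 0.99. Mean Ctse was 139 RPKM in resting cells and 18.8, 14.9 and 13.2 RPKM in Th0, Th1 and Th2. Blnk (rank 351) and Cd22 (rank 461) were the members nearest to Cd79a.

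Other genes of the B cell lineage and of the response to IL-4 were examined as lists. Of 29 further B cell genes in the table, 25 were tested against rest. By limma at 4 h 9 were called lower and none higher, with 1 higher at an unadjusted p under 0.05, where 7.97% of all genes were called lower and 2.61% higher. At 24 h 16 were lower and 1 higher, where 17.4% of all genes were called lower and 12.7% higher, with a median log2 change of -1.58 beside -0.04 over all genes. Kinases and adaptors of B cell receptor signalling were among those that fell at 24 h, for example Syk (-3.21 on the log2 scale), Lyn (-3.43) and Btk (-2.56). These kinases are also used by myeloid cells. Cd24a, which red cell precursors also carry, fell by 4.77. Pou2f2, encoding the octamer-binding factor Oct-2, was the one called higher, by 1.73. Cd40 (0.96, adjusted p = 2.7e-04) and Vav3 (0.73, adjusted p = 0.010) were also higher but short of 2-fold. Of the 22 tested in culture, limma called none between Th2 and Th0, Th2 and Th1 or Th1 and Th0, where 2.01%, 1.96% and 0.494% of all genes were called. At an unadjusted p under 0.05 there were 8, 9 and 4, of which 1, 3 and 2 were higher in the first-named condition. The share of all genes at that unadjusted limit is not given, so no enrichment can be read from these counts. Some passed the adjusted p but not the 2-fold limit, such as Ralgps2 in Th2 against Th0 (-0.48, adjusted p = 0.0017). In Th2 against Th1 these included Fcrl1 (-0.69, adjusted p = 0.0016) and Dapp1 (0.73, adjusted p = 0.0049).

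IL-4-induced genes other than Fcer2a were tested between conditions. The time points of a condition took the place of replicates, so SE and p-values measure the spread over time points only. Of 13 in the table, 11 were tested, and 2 were higher in Th2 than in Th0, against 0.186% of all genes, and 4 were higher in Th2 than in Th1, against 0.568%. Against Th1 these were Ccr4 (2.74 ± 0.08 on the log2 scale, SE), Gata3 (1.60 ± 0.14), the receptor chain Il4ra (1.27 ± 0.23) and Nfil3 (1.13 ± 0.08), the highest adjusted p being 0.0015. Against Th0 they were Ccr4 (1.99 ± 0.08) and Ccr8 (1.13 ± 0.18), with adjusted p of at most 3.1e-04. At an unadjusted p under 0.05 by limma, 8 of the 11 differed between Th2 and Th1, 6 of them higher in Th2. Here too the share of all genes at the unadjusted limit is not given. Between Th1 and Th0, 1 was called lower and none higher, against 0.494% of all genes in either direction. Mean Il4ra was 124, 40.6 and 125 RPKM in Th0, Th1 and Th2, beside 39.6 in resting cells. Mean Gata3 was 17.7, 8.58 and 27.5 RPKM in that order, beside 25.9 in resting cells.

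Actinomycin libraries held little RNA of any of the 9 genes. Fcer2a measured 0.277, 0.424, 0.381 and 0.742 RPKM after 0, 1, 2 and 4 h of the drug, on 16, 20, 16 and 30 reads. The lowest 16 h culture, Th1, held 9.37 times the Fcer2a level of the library at 0 h. Cd79a measured 0.613, 1.18, 0.952 and 1.63 RPKM, and its lowest 16 h culture held 6.06 times the level at 0 h. In 8 of the 9 genes the library at 0 h lay below all 3 cultures at 16 h, although it had also been stimulated for 16 h. Cr2 was the exception, with 0.0939 RPKM in that library and 0.0646 RPKM in Th1 at 16 h. How many of all genes lay below the 3 cultures in this way is not given, so 8 of 9 cannot be weighed. The sum over the 7 T cell markers was between 1636 and 1822 RPKM in these 4 libraries. Which preparation and skewing condition they came from is not given, so the preparation and the condition cannot be told apart. The library at 0 h had no hours of the drug. For the later libraries, the drug cannot be told apart from these either in a comparison with the cultures.

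Only Cd79a and Cd79b reached a mean of 1 RPKM in the actinomycin libraries and were tested for a slope on hours of the drug. Neither was called, with 0.20 ± 0.10 (SE; adjusted p = 0.16) per hour for Cd79a and 0.02 ± 0.10 (adjusted p = 0.92) for Cd79b, against 20.9% of all genes called in either direction. For Fcer2a the level at 4 h was 2.67 times that at 0 h, and for Cd79a this ratio was also 2.67. The 95% counting intervals of Fcer2a at 0 h (0.159 to 0.451 RPKM) and at 4 h (0.5003 to 1.06 RPKM) did not meet. RPKM is relative to the RNA that remains, so a ratio above 1 does not show that a transcript was made. A loss of these transcripts after the drug was not detectable at this depth.

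**Figure D5:**
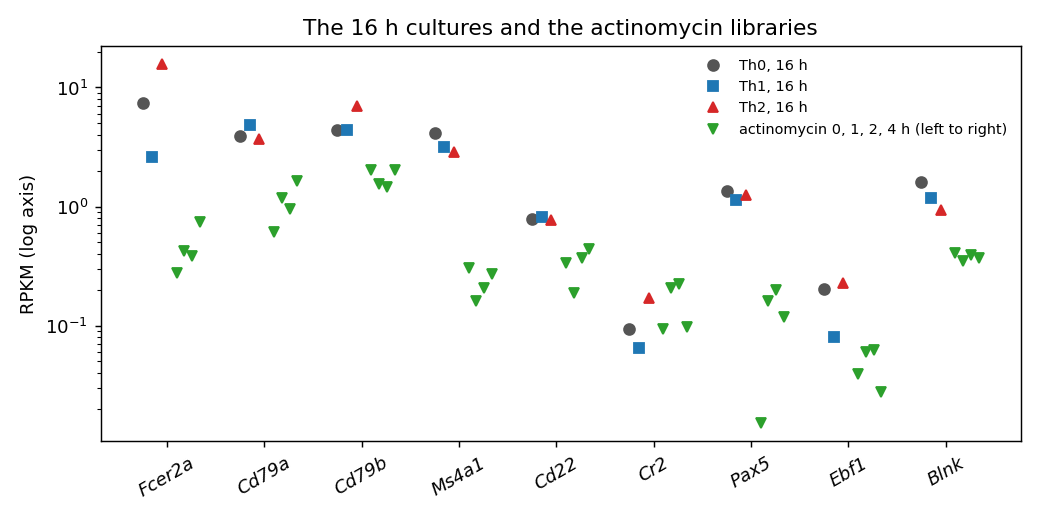
RPKM on a log axis for each of the 9 genes in the 16 h cultures and in the actinomycin libraries at 0, 1, 2 and 4 h of the drug, single libraries throughout. Fcer2a at 0 h (0.277 RPKM) lies below all 3 cultures at 16 h (2.60 to 15.8 RPKM), and Cr2 is the only gene whose 0 h library lies inside the range of the cultures.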

How the data were processed

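The authors prepared the libraries with standard Illumina protocols, sequenced them on a NextSeq instrument and deposited RPKM values per gene in 1 table. The submitters' processing notes name BWA and GRCm38. The annotation and counting tool are not given in the sources used here. Each condition and time was sequenced once, from pooled cells, so p-values measure the spread between these libraries only. The 2 resting libraries were the only replicates, and nothing says that they came from separate animals. Reads were recovered from the steps of the RPKM values, giving between 17512385 and 33017133 mapped reads per library. For genes with 1 annotated transcript, between 61.1% and 63.5% of values came out whole within 0.02 reads, so no count test was run. Reads per library could be recovered for Fcer2a, Cd79a, Ms4a1 and Cr2 only. They were taken at the shortest length that made the values of every library whole. For Fcer2a (2241 bases) and Ms4a1 (2057 bases) that length matches no annotated one. Whole multiples of a length also fit, and would give more reads and narrower intervals. For the other 5 members the counting error is unknown. Intervals cover counting error only.

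Values were tested as log2(RPKM + 0.5) with limma 3.58.1 (R 4.3.3) and an intensity trend, keeping genes that averaged 1 RPKM or more, with Benjamini-Hochberg adjustment over all genes. The pseudocount understates changes of low genes. The 20 time-course libraries entered the fit by time, the 18 cultures a fit with time and condition, and the 4 actinomycin libraries a line with 2 residual degrees of freedom. The fits were run on simulated data in which the culture conditions did not differ, so that run does not cover the spread between Th0, Th1 and Th2. Its pass mark for recovered genes was lowered after a first run, with the fits unchanged. Members and lists were chosen with earlier results of these data known. Named are the 9 members, examples from the lists, and the 5 genes nearest by correlation to Fcer2a and to Cd79a. Alternatives were pseudocounts of 0.1 and 1, no filter and a limit of 5 RPKM, quantile and median-of-ratios scaling, haemoglobin genes left out, no trend, condition as a factor, only the time points compared, and leaving out libraries, conditions or times. Gene positions are from GENCODE for GRCm38.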

Additional observations from a re-analysis of the deposited data

Results flagged for a closer look

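Fcer2a stood on opposite sides of rest in different conditions. All 6 Th0 cultures (mean 6.28 RPKM) and all 6 Th2 cultures (mean 12.5 RPKM) lay above both resting libraries, and all 6 Th1 cultures (mean 2.38 RPKM) lay below them as deposited. Only the 4 h Th1 culture was clear of both in its counting interval, and under quantile normalization 5 of the 6 Th1 cultures lay above both resting libraries. This difference in direction was not tested, because it belongs to the values that selected the gene.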

How the results depend on the processing

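Of 645 values recomputed under an alternative, 629 were the same by rule. Counts over all genes had only to stay within a set factor of the main count. Of the 555 values of members, 544 gave the same call and sign or stayed within the spread over time points. The 3 Fcer2a differences between conditions did so under each of 14 alternatives, within 1.96 to 2.31 for Th2 minus Th1, 0.87 to 0.98 for Th2 minus Th0 and -1.35 to -1.09 for Th1 minus Th0. With a limit of 5 RPKM, fewer genes were tested and 646 rather than 1152 changed at 4 h. Without 1 of the 4 actinomycin libraries, the genes with a slope numbered from 536 to 3351, beside 2213. The uncalled change of Fcer2a at 4 h ran from -0.27 without the Th2 cultures to 0.64 without the Th1 cultures, and the uncalled Cd79b slope from -0.18 without the 4 h to 0.11 without the 0 h library. Quantile scaling moved the median of all genes at 24 h from -0.04 to 0.13 and median-of-ratios scaling to 0.10, and under quantile scaling 551 of 1267 calls at 4 h were higher, beside 284 of 1152, and 1864 of 3450 at 24 h, beside 1389 of 3280. Ms4a1 from 4 to 24 h passed 2-fold without the Th0 or the Th2 cultures. A member under the limit on low values in an alternative gave no value there. Conditions were compared within time points, and no fit blocked by replicate number could be made, because the cultures had 1 library each and carry no such numbers.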
